A study of Mus musculus with 23 samples.

Results

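The barrier lipid enzymes of the epidermis were followed through wound repair in diabetic mice as a set of 9 genes: Elovl4, Cyp4f39, Cers3, Pnpla1, Abca12, Alox12b, Aloxe3, Sdr9c7 and Alox12. The set was chosen by symbol from a table of counts for 56379 genes. All 9 symbols were present, and all 9 passed the filter on low counts that left 23083 genes for testing.

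These enzymes make and place the lipids that keep water in the skin. Elovl4 lengthens fatty acids to ultra-long chains, Cyp4f39 adds a hydroxyl group at their far end, Cers3 joins them to a sphingoid base, and Pnpla1 adds linoleate to give acylceramide. Abca12 loads the glucosylated product into lamellar granules, and Alox12b, Aloxe3 and Sdr9c7 then oxidise the linoleate in turn before the lipid is bound to the cornified envelope. Loss of any of these enzymes is a known cause of a leaky skin barrier or ichthyosis in mice or people. Alox12 is the 12S-lipoxygenase, which is made by platelets as well as by epidermal cells, and it is not a required step of that chain.

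RNA was taken from the skin of HTNF ki/ki Lepr db/db mice aged 8 to 12 weeks, which carry a human TNF allele and, in both arms, the leptin receptor mutation that makes them obese and diabetic. Each mouse received 4 full-thickness back wounds of 6 mm, after hair removal and with tramadol as pain relief, and the wound sites were taken with an 8 mm punch. Control mice were given PBS and the others adalimumab, an antibody that binds human TNF, at 20 mg/kg under the skin on days 0, 3, 7 and 10. The 8 groups were control and adalimumab on days 0, 3, 7 and 10, with 3 libraries each except adalimumab on day 10, which had 2, and 23 in all. The punch is wider than the wound, so each wound library can hold RNA of the margin as well as of the wound bed, and no group lacked the knock-in or the receptor mutation.

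Library totals lay between 33080930 and 37494760 counts. All 12 libraries of days 0 and 3 had at least 20168 counts of Xist, the RNA made from the inactive X chromosome, as did 1 of the 11 libraries of days 7 and 10 (adalimumab day 7 replicate 3, with 30365), and the others had at most 35, so differences between the early and the late days and differences of sex cannot be told apart. Keratinocyte markers were present in 22 libraries. In adalimumab day 3 replicate 1 they were near 0: the basal keratin Krt5 stood at 1.38 CPM (counts scaled to a common library size) and the suprabasal keratin Krt10 at 2.03 CPM, against at least 138 and 8.09 CPM in the other 22 libraries. Adalimumab day 0 replicates 2 and 3 carried hair follicle RNA, with 697 and 6440 CPM of the inner root sheath gene Tchh against 7.70 CPM in replicate 1. On day 10 Tchh stood at 189 and 35.2 CPM in adalimumab and at 6.76 to 9.49 CPM in control. Many counts and list medians and most correlations are also given without adalimumab day 3 replicate 1. The fit without adalimumab day 0 replicates 2 and 3 leaves 1 library in that group, and mainly its medians are given. No correlation was computed without those replicates of day 0.

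In control skin of day 0 the ceramide-building enzymes were present in every library, and replicate 2 was the highest of the 3 for all 9 genes. Elovl4 stood at 639, 937 and 533 CPM in control replicates 1, 2 and 3, and Cyp4f39 at 16.2, 41.0 and 17.4 CPM. Per kilobase of exon, the scale on which genes can be set against each other, the level of Elovl4 was 232 ± 69.2 CPM per kb (SD, n = 3), and the mean levels of the other enzymes lay between 2 (Alox12) and 8.71 CPM per kb (Cyp4f39). The exon lengths are those of GENCODE M21, which may not be the annotation behind the counts. Abca12 stood at 36.5, 149 and 54.2 CPM, Sdr9c7 at 5.12, 43.2 and 6.42 CPM and Alox12b at 5.12, 41.6 and 7.18 CPM. Replicate 2 thus stood several-fold above replicates 1 and 3 for Sdr9c7 and Alox12b, and this spread limits every comparison with day 0.

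**Figure D1:**
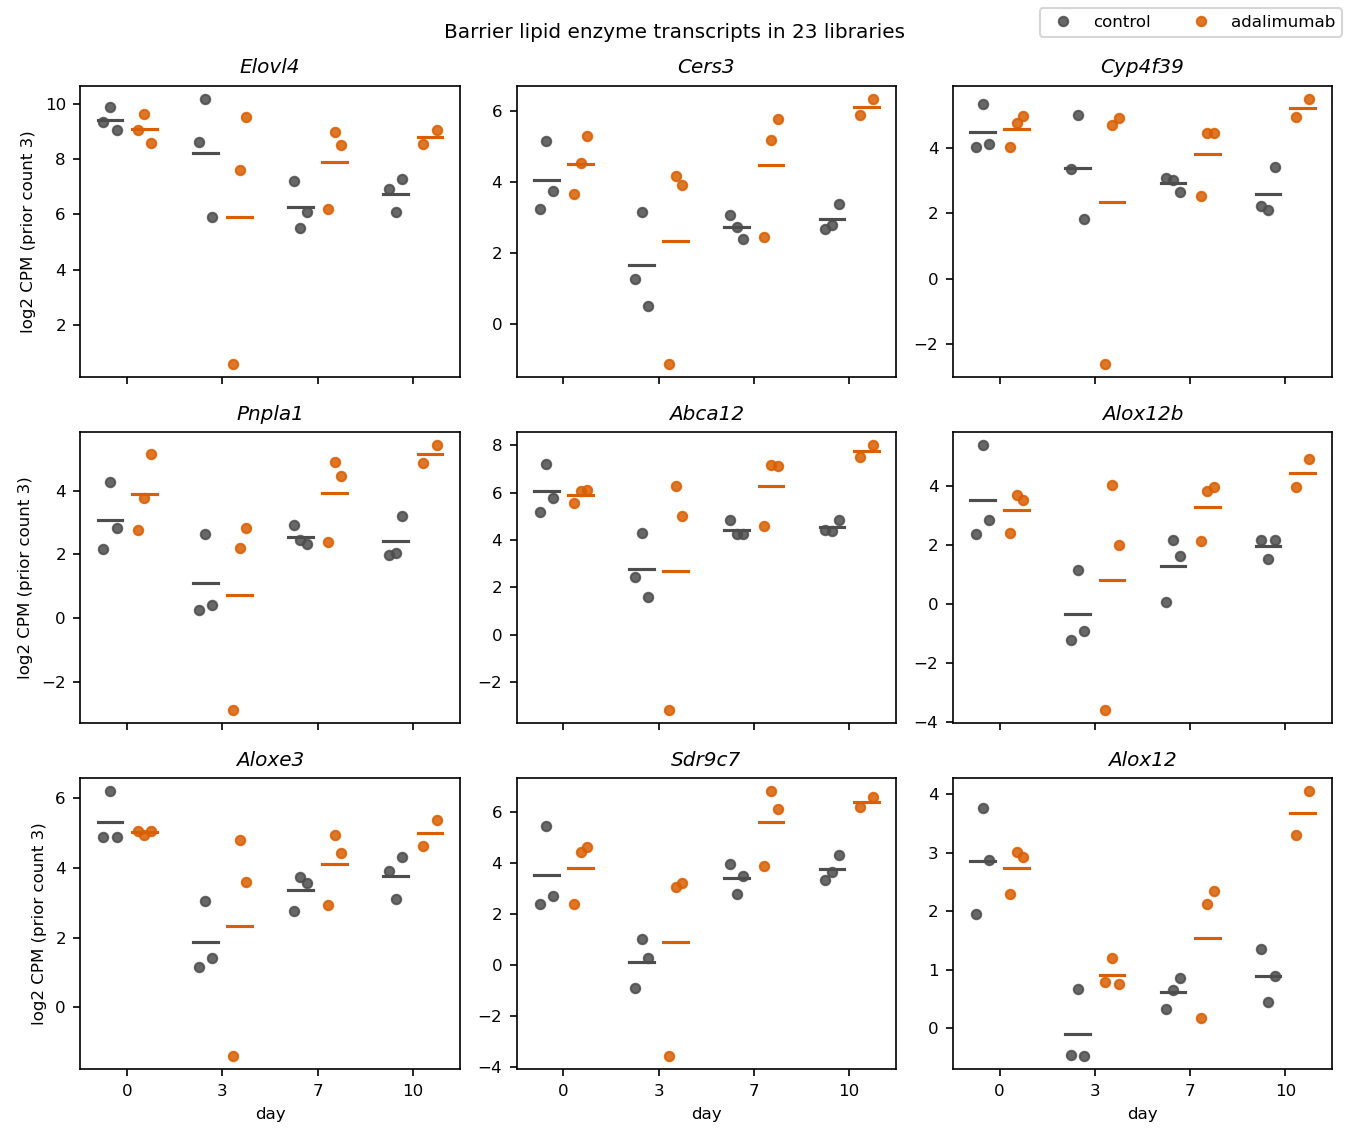
Level of each enzyme in each of the 23 libraries, as log2 CPM with a prior count of 3 (vertical axis, scale differs by panel) on days 0, 3, 7 and 10, with control in grey and adalimumab in orange. Points are libraries and bars are group means. On day 10 the 2 adalimumab libraries lie above all 3 control libraries in every panel, and 1 adalimumab library of day 3 lies far below the rest in 8 of the 9 panels.

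The enzymes did not differ detectably between adalimumab and control skin on day 0. Log2 differences ran from -0.87 for Alox12b to 0.86 for Pnpla1, and edgeR called 0 of the 9 enzymes, with 0 at an unadjusted p under 0.05 and 0 by DESeq2 or limma voom, against 0.269% of all genes tested. The median over the enzymes was -0.28, with no settled sign: it was -0.68 without the hair-rich adalimumab replicates 2 and 3, 0.55 without control replicate 2 and 0.61 by limma voom.

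In control wounds of day 3, transcripts of the transporter and of the 4 oxidising enzymes had fallen, while Elovl4 and Cyp4f39 did not pass the test. That fit did not pair the libraries by animal, and fewer enzymes passed with the animal as a block, as given below. Of the 9 enzymes, 5 fell from day 0 to day 3 and 0 rose, where 17.1% of all genes tested fell and 34.6% changed in either direction. The groups did not overlap for 6 enzymes, against 25.4% of all genes tested that were lower in every day 3 library. Whether a wound library with lower levels held fewer keratinocytes or less of these RNAs per cell cannot be told apart in bulk tissue.

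Among the enzymes that build the acylceramide, none passed the test. Elovl4 stood at 395, 1144 and 59.9 CPM on day 3, which is a wider range than on day 0 and overlaps it, and the log2 difference was -0.40 ± 1.13 (SE; adjusted p = 0.815). Without control day 3 replicate 3 it was 0.13. Cyp4f39 stood at 10.1, 32.2 and 3.45 CPM (log2 difference -0.71 ± 1.00, adjusted p = 0.616). For both genes the lowest day 3 library was replicate 3 and the highest replicate 2. Cers3 stood at 2.34, 8.82 and 1.34 CPM, all below the lowest day 0 library of 9.28 CPM, with a log2 difference of -2.21 ± 0.97 (adjusted p = 0.0845). Pnpla1 stood at 1.11, 6.16 and 1.25 CPM, overlapping day 0 (-1.84 ± 1.00, adjusted p = 0.165).

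The lamellar granule transporter Abca12 fell 8.71-fold, from 36.5, 149 and 54.2 CPM to 5.36, 19.2 and 2.89 CPM (log2 difference -3.12 ± 1.17, adjusted p = 0.0458). Every day 3 library was below every day 0 library. The 12R-lipoxygenase Alox12b fell 18.2-fold, to 0.351, 2.15 and 0.445 CPM (-4.18 ± 1.30, adjusted p = 0.0187). Its partner Aloxe3, which acts on the product of Alox12b, had 29.6, 73.5 and 29.5 CPM on day 0 and 2.17, 8.31 and 2.59 CPM on day 3 (-3.34 ± 0.93, adjusted p = 0.0108). The dehydrogenase Sdr9c7 fell to 0.439, 1.94 and 1.11 CPM (-3.97 ± 1.22, adjusted p = 0.0179). Alox12 fell from 3.77, 13.5 and 7.25 CPM to 0.644, 1.51 and 0.640 CPM (-3.13 ± 0.55, adjusted p = 0.000477), and it had the smallest SE of the set.

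How many enzymes passed depended on single libraries. Over the 23 fits that left out 1 library each, Abca12 passed in 6, Alox12b and Sdr9c7 in 20, Aloxe3 in 21 and Alox12 in 23. Without control day 0 replicate 2 the count was 2, and without control day 3 replicate 1 or replicate 3 it was 1. Aloxe3 and Alox12 passed in the first of these fits and Alox12 in the others. Without control day 3 replicate 2 the count was 7, with Cers3 and Pnpla1 added. Without adalimumab day 3 replicate 1, which is not in this comparison but enters the shared estimate of the spread, it was 6, with Cers3 added, and without the hair-rich adalimumab libraries of day 0 it was 4, without Abca12. The mice of days 0 and 3 carry the same animal numbers in the headers of the count table, and with the animal as a block on those days alone 2 enzymes passed, Alox12b (adjusted p = 0.048) and Alox12 (adjusted p = 0.00734), with Aloxe3 at 0.052, Sdr9c7 at 0.0533 and Abca12 at 0.125.

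**Figure D2:**
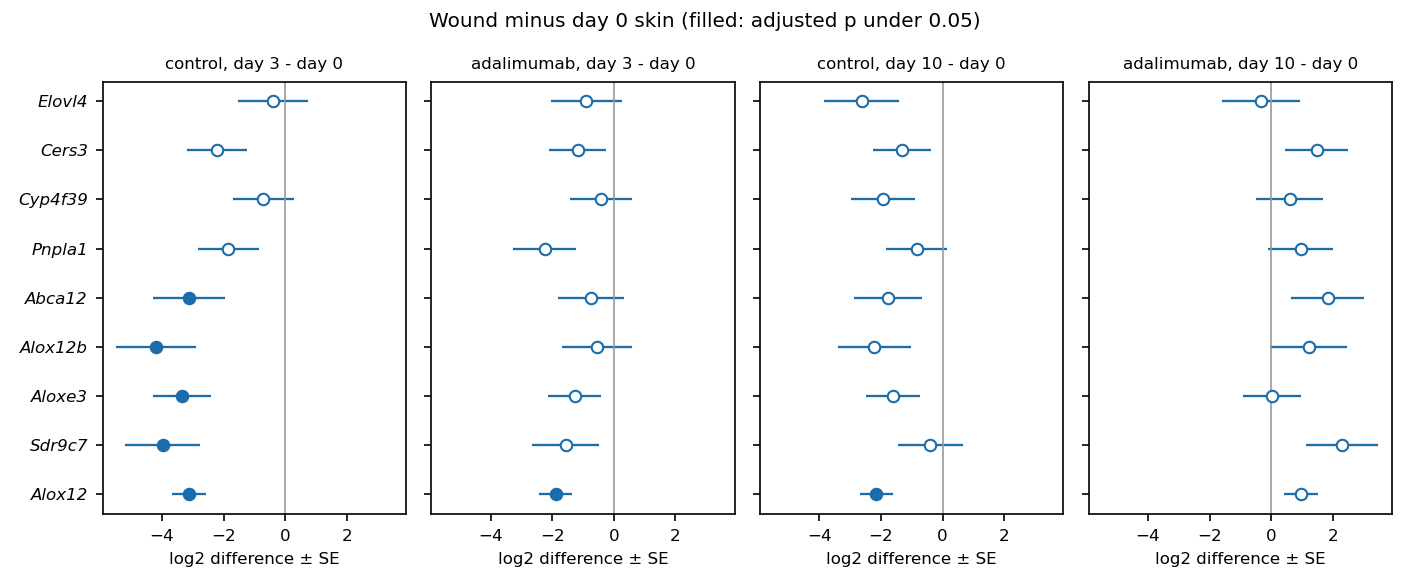
Difference of wounds from day 0 skin for each enzyme, as log2 fold difference with its SE (horizontal axis), for control and adalimumab on day 3 and on day 10. Filled points have an adjusted p under 0.05 over all genes tested: 5 in control on day 3, and Alox12 alone in adalimumab on day 3 and in control on day 10.

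In adalimumab wounds of day 3 the 3 libraries went separate ways. Replicate 1, the library without keratinocyte keratins, held 0 counts of Alox12b and of Sdr9c7 (a count of 0 allows up to 3 counts, or 0.0812 CPM), 1 of Abca12, 2 of Pnpla1, 3 of Cyp4f39, 11 of Aloxe3 and 14 of Cers3. Its Elovl4 level was 1.43 CPM from 53 counts. Replicates 2 and 3 were above replicate 1 for the other 8 enzymes and straddled it for Alox12. Abca12 stood at 77.0 and 31.7 CPM against 47.0, 67.4 and 68.1 CPM on day 0, and Alox12b at 16.2 and 3.92 CPM against 5.18, 12.9 and 11.4 CPM. Of the 9 enzymes 1 fell, Alox12, where 9.54% of all genes tested fell and 21.5% changed. The groups did not overlap for Alox12 and Aloxe3, against 18.4% of all genes tested that were lower in every day 3 library. Alox12 went from 4.82, 7.95 and 7.47 CPM to 1.65, 2.20 and 1.61 CPM (log2 difference -1.89 ± 0.53, adjusted p = 0.0166). That call was lost without adalimumab day 0 replicate 2, without day 3 replicate 1 (-1.78, adjusted p = 0.0544) and without day 3 replicate 3. Without replicate 1 of day 3 the median over the 9 enzymes was -0.57 in place of -1.17. It was -0.34 without the hair-rich day 0 libraries, -1.94 without replicate 2 of day 3 and -2.18 by limma voom.

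The treatments were not shown to differ on day 3. The enzymes were higher in adalimumab by value except Elovl4, with log2 differences from -0.79 for Elovl4 to 2.76 for Alox12b. EdgeR called 0 of 9, with 1 at an unadjusted p under 0.05 and 0 by DESeq2 or limma voom, against 0% of all genes tested. Alox12 was the 1 enzyme whose groups did not overlap, against 6.6% of all genes tested. The median over the enzymes was 1.41, and it was 1.95 without adalimumab replicate 1, 0.79 without adalimumab replicate 2 and 2.50 without control replicate 2, with 0 called in each. The change from day 0 to day 3 did not differ between the treatments for any of the 9 enzymes by edgeR, DESeq2 or limma voom (1 at an unadjusted p under 0.05, Alox12b), where 1.81% of all genes tested differed.

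In later control wounds most of the enzymes stayed below their mean level of day 0. Abca12 stood at 28.5, 18.9 and 18.7 CPM on day 7 and 21.0, 20.6 and 28.7 CPM on day 10. Elovl4 stood at 148, 45.1 and 68.0 CPM and then 120, 67.7 and 153 CPM, below all 3 day 0 libraries. Cers3 lay between 5.17 and 8.26 CPM on day 7 and between 6.25 and 10.3 CPM on day 10. From day 0 to day 10 Alox12 fell 4.45-fold (log2 difference -2.15 ± 0.53, adjusted p = 0.0053) and was the 1 enzyme called, where 18.2% of all genes tested fell and 34.4% changed. Elovl4 differed by -2.63 ± 1.20 (adjusted p = 0.0979). The day 10 libraries were all below the day 0 libraries for 6 enzymes (Elovl4, Cyp4f39, Abca12, Alox12b, Aloxe3 and Alox12), against 27.5% of all genes tested. Without adalimumab day 3 replicate 1, 4 passed: Elovl4 (adjusted p = 0.0222), Cyp4f39 (0.0315), Aloxe3 (0.0394) and Alox12 (0.00648). All 4 were lower, where 18.4% of all genes tested were lower in that fit. The day 3 and day 10 comparisons of an arm share their day 0 libraries.

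Sdr9c7 took another course. It stood at 15.3, 6.76 and 11.0 CPM in control on day 7 and 9.85, 12.3 and 19.5 CPM on day 10, within the range of day 0, with a day 10 difference of -0.40 ± 1.06 (adjusted p = 0.8) that was 1.32 without control day 0 replicate 2. Its difference from day 3 to day 7 was 3.24 ± 1.18 in control (adjusted p = 0.131) and 3.48 ± 1.17 in adalimumab (adjusted p = 0.0761). It was the 1 enzyme of the 9 for which every day 7 library exceeded every day 3 library, and it was so in both arms, against 12.1% of all genes tested in control and 8.84% in adalimumab. EdgeR called 0 of 9 from day 3 to day 7 in either arm (2 in each at an unadjusted p under 0.05), where 3.05% of all genes tested changed in control and 6.48% in adalimumab. DESeq2 called 1 in each arm, which was Sdr9c7, and limma voom called 0 in control and 1 in adalimumab. Without adalimumab day 3 replicate 1 the control difference passed (adjusted p = 0.0486) and that of adalimumab did not (2.97, adjusted p = 0.105).

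In adalimumab wounds of day 7, replicate 1 was at the control level and replicates 2 and 3 far above it. Abca12 stood at 23.8, 145 and 138 CPM, Cers3 at 5.36, 36.1 and 53.9 CPM and Sdr9c7 at 14.4, 111 and 68.3 CPM. This split ran through the whole set, since replicate 1 was the lowest of the 3 for all 9 enzymes. Replicate 3 had 30365 counts of Xist, replicates 1 and 2 had 2 and 35, and the control libraries at most 25. The arms thus also differed in sex on day 7, and its part was not tested. All 9 differences from control were above 0, from 0.91 for Aloxe3 to 2.54 for Sdr9c7, and edgeR called 0 of them (3 at an unadjusted p under 0.05, 0 by DESeq2 and 0 by limma voom), against 0% of all genes tested. The suprabasal marker score moved with the split, at -0.62, 2.51 and 2.77 in replicates 1, 2 and 3 against -0.96 to -0.59 in control. That score is the mean of 14 marker genes on the log2 CPM scale, each centred on its own mean, and its part in the difference was not tested.

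On day 10 every enzyme was higher in both adalimumab libraries than in all 3 control libraries. So was the summed level of 8 inner root sheath markers (128 to 583 CPM against 36.3 to 50.6 CPM), and its part was not tested. The transporter Abca12 stood at 180 and 255 CPM against 21.0, 20.6 and 28.7 CPM, a mean of 218 ± 52.6 CPM (SD, n = 2) against 23.4 ± 4.59 (n = 3) and a log2 difference of 3.21 ± 1.23 (adjusted p = 0.266). Cers3 stood at 58.7 and 79.7 CPM against 6.25, 6.83 and 10.3 CPM (3.15 ± 1.05, adjusted p = 0.24). Sdr9c7 stood at 72.6 and 94.4 CPM against 9.85, 12.3 and 19.5 CPM (2.59 ± 1.19, adjusted p = 0.341). The difference was least for Aloxe3, at 24.8 and 41.3 CPM against 15.0, 8.48 and 20.0 CPM (1.19 ± 0.94, adjusted p = 0.593). Elovl4 stood at 376 and 530 CPM, with 1 library below and 1 within the range of adalimumab skin of day 0 (385 to 792 CPM), and control at 67.7 to 153 CPM (2.00 ± 1.26, adjusted p = 0.491). Alox12 stood at 9.78 and 16.4 CPM against 2.47, 1.28 and 1.77 CPM, with the smallest p of the set (2.83 ± 0.57, unadjusted p = 0.000106, adjusted p = 0.14).

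None of these differences passed over all genes by edgeR. On day 10 it called 0 of 9 enzymes, 6 of which had an unadjusted p under 0.05, and 0% of all genes tested, while for 23.1% of all genes tested both adalimumab libraries exceeded all 3 control libraries. DESeq2 called 1 enzyme (Alox12, adjusted p = 0.00111) and limma voom with sample weights 7. Both methods also called more of all genes than edgeR did, as counted at the end of the report. A fit of the 5 libraries of day 10 alone called 8, with Aloxe3 at an adjusted p of 0.0823, and 1831 genes in all. Without adalimumab day 7 replicate 1 edgeR called 1, Alox12 (adjusted p = 0.0239).

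Over the mean of days 7 and 10 all 9 differences were above 0 with a median of 2.17, against -0.03 over all genes tested. Adalimumab day 7 replicate 3, the late library with Xist, is part of this comparison. EdgeR called 0 of 9 (8 at an unadjusted p under 0.05), where 0.091% of all genes tested were called, all of them higher. Alox12 came nearest, at 2.03 ± 0.39 (adjusted p = 0.0516), followed by Cers3 at 2.70 ± 0.71 (adjusted p = 0.132). DESeq2 called 4 (Cers3, Abca12, Sdr9c7 and Alox12) and limma voom 6. Over all genes, too, each called more than edgeR (counts at the end of the report). Without adalimumab day 3 replicate 1 edgeR called Cers3, Abca12, Sdr9c7 and Alox12 (adjusted p = 0.0312, 0.0258, 0.0454 and 0.0264), and 263 genes in all. Without adalimumab day 7 replicate 1 it called Cers3 (0.0394) and Alox12 (0.00381). Without control day 0 replicate 2, control day 3 replicate 2 or 3, or adalimumab day 0 replicate 3 it called 1 enzyme.

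Adalimumab wounds of day 10 were set against adalimumab skin of day 0. Both libraries exceeded all 3 day 0 libraries for 5 enzymes (Cers3, Abca12, Alox12b, Sdr9c7 and Alox12), against 25.5% of all genes tested, and Sdr9c7 differed most (log2 difference 2.29 ± 1.18, adjusted p = 0.191). EdgeR called 0 of 9, with 0 at an unadjusted p under 0.05, where 14.4% of all genes tested changed. DESeq2 called 0 and limma voom 5, and the share of all genes by these methods is not given here. The median over the 9 enzymes was 0.96, and 2.25 without the hair-rich day 0 libraries. From day 7 to day 10 edgeR called 0 of 9 in control (0 at an unadjusted p under 0.05) and 0 in adalimumab (1 at an unadjusted p under 0.05), against 0% of all genes tested in both. DESeq2 called 0 in both arms, and limma voom called 0 in control and 1 in adalimumab. The change from day 0 to day 10 differed between treatments by 1.63 (Aloxe3) to 3.61 (Abca12) on the log2 scale and was called for 0 of 9 by edgeR (2 at an unadjusted p under 0.05), against 0% of all genes tested, and for 1 each by DESeq2 and limma voom. Its median over the enzymes was 2.69, 2.76 without adalimumab day 3 replicate 1 and 3.68 without the hair-rich libraries, with 0 called in both.

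**Figure D3:**
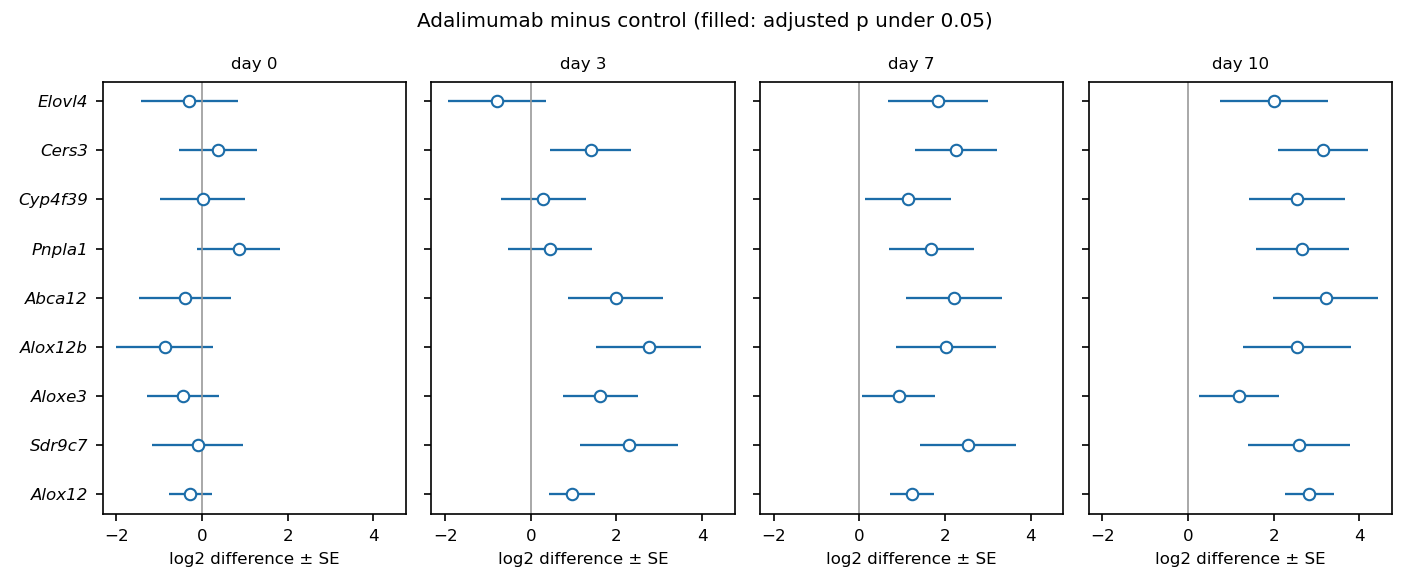
Adalimumab minus control for each enzyme on days 0, 3, 7 and 10, as log2 fold difference with its SE (horizontal axis). No point is filled, since none had an adjusted p under 0.05 by edgeR. The points lie on both sides of 0 on day 0 and all to its right on days 7 and 10.

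All of the enzymes but Elovl4 and Cyp4f39 correlated more closely with markers of the differentiating (suprabasal) epidermis than with basal markers. On day 10 the 14 suprabasal markers had a median treatment difference of 3.37 (log2; 0 of 14 called) and the 9 basal markers 1.85 (0 of 9), beside 2.59 for the enzymes and -0.04 over all genes tested. From day 0 to day 3 in control the suprabasal median was -2.82 (8 of 14 fell) and the basal median -2.08 (4 of 9 fell), beside -3.12 for the enzymes. These counts were 12 of 14 and 6 of 9 without adalimumab day 3 replicate 1. Of all genes tested 17.1% fell with all libraries and 17.9% without that library. The summed level of the suprabasal markers lay between 1030 and 1870 CPM in control and between 15500 and 22200 CPM in adalimumab on day 10. Its part in the differences of the enzymes was not tested. Across the 23 libraries, which share these cells as their source, Pearson's r with the suprabasal score was 0.964 for Pnpla1, 0.954 for Cers3, 0.936 for Abca12 and 0.937 for Sdr9c7, and 0.697 for Elovl4. With the basal score it was 0.888 for Elovl4 and 0.421 for Sdr9c7. For Cyp4f39 it was 0.848 with the basal and 0.791 with the suprabasal score (0.783 and 0.646 without adalimumab day 3 replicate 1). With the score of 9 sebaceous gland markers r was 0.634 for Elovl4, the highest of the enzymes, 0.472 for Cyp4f39 and -0.094 for Sdr9c7. The sebaceous correlations were computed with all libraries only. Without adalimumab day 3 replicate 1, over 22 libraries, r with the suprabasal score was 0.947, 0.931, 0.919 and 0.901 for Pnpla1, Cers3, Abca12 and Sdr9c7 and 0.473 for Elovl4, and r with the basal score was 0.844 for Elovl4 and 0.108 for Sdr9c7.

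**Figure D4:**
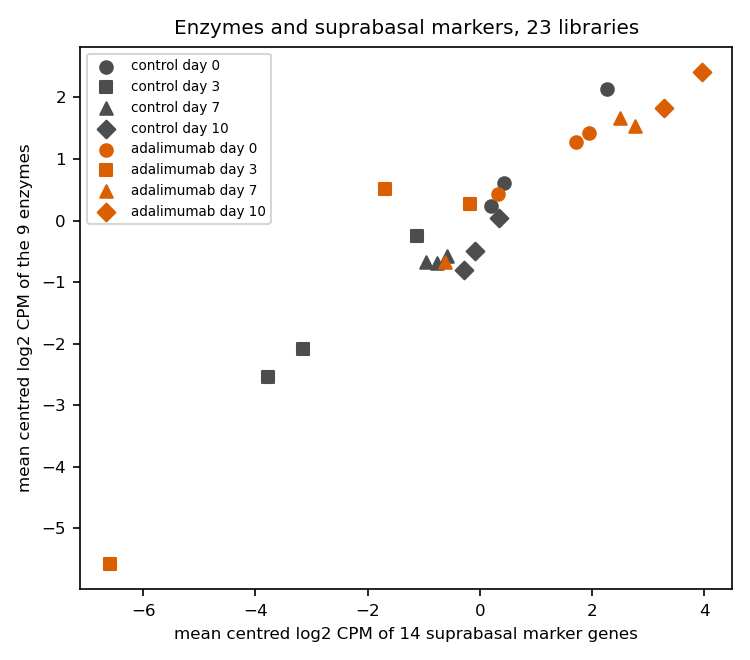
Mean centred log2 CPM of the 9 enzymes (vertical axis) against that of 14 suprabasal keratinocyte markers (horizontal axis) in the 23 libraries, with shape for day and colour for treatment. The libraries lie along a diagonal from adalimumab day 3 replicate 1 (-6.59 on the horizontal and -5.59 on the vertical axis) to the adalimumab libraries of day 10 (3.29 and 3.97 on the horizontal axis). Adalimumab day 3 replicate 2 lies above the others at its suprabasal score.

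Among themselves the enzymes varied together to different degrees. Over the 23 libraries the highest r was 0.958, between Cers3 and Pnpla1, and Alox12b and Aloxe3 were at 0.952. Elovl4 was at 0.935 with Cyp4f39 and at 0.492 to 0.787 with the other enzymes, with Sdr9c7 at 0.544. Cyp4f39 was at 0.899 with Abca12 and 0.866 with Cers3. Without adalimumab day 3 replicate 1 the first 3 pairs were at 0.945, 0.926 and 0.849, while Elovl4 and Sdr9c7 were at 0.166. Relative to the suprabasal score, Elovl4 was highest in control wounds of day 3 (3.16 ± 1.09, SD, n = 3, as a difference of centred log2 values) and lowest in adalimumab wounds of day 10 (-2.58 ± 0.13, n = 2). Cyp4f39 had the same ends (2.47 ± 0.45 and -2.02 ± 0.08), and so did Pnpla1 over a smaller span (1.03 ± 0.39 and -1.24 ± 0.09). Aloxe3 was at -2.43 ± 0.04 in adalimumab wounds of day 10, where Cers3, Abca12 and Alox12b also had their lowest values (-1.01, -0.82 and -1.38). The subtraction takes each enzyme to move log2 unit for log2 unit with the score. That score was highest in those wounds (3.29 to 3.97) and low in control wounds of day 3 (-3.78 to -1.11). A gene that varies less than the score thus comes out low in the former and high in the latter, so these ends are no separate result.

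The balance of Sdr9c7, at the end of the chain, to Elovl4, at its start, separated the early from the late libraries. Log2 CPM of Sdr9c7 minus that of Elovl4 was at most -3.96 in all 12 libraries of days 0 and 3 and at least -3.59 in all 11 libraries of days 7 and 10. In control it was -5.91 ± 1.31 on day 0, -8.12 ± 2.15 on day 3, -2.87 ± 0.35 on day 7 and -3.00 ± 0.57 on day 10 (SD, n = 3 each). In adalimumab it was -5.29 ± 1.37, -5.01 ± 1.13, -2.31 ± 0.12 (n = 3 each) and -2.43 ± 0.08 (n = 2). This is a description with no test, chosen after the values were seen. The days also differ by sex, and adalimumab day 7 replicate 3, the late library with Xist, was at -2.41. They differed in marker RNA too. The sebaceous gland score was 1.67 to 2.67 in control and 1.74 to 2.32 in adalimumab on day 0. On day 3 it was -0.968 to 2.46 and -0.783 to 2.11, and on days 7 and 10 it was at most -0.271. Its part in this balance was not tested. The value of adalimumab day 3 replicate 1 (-4.18) rests on 0 counts of Sdr9c7 and moves with the prior count.

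**Figure D5:**
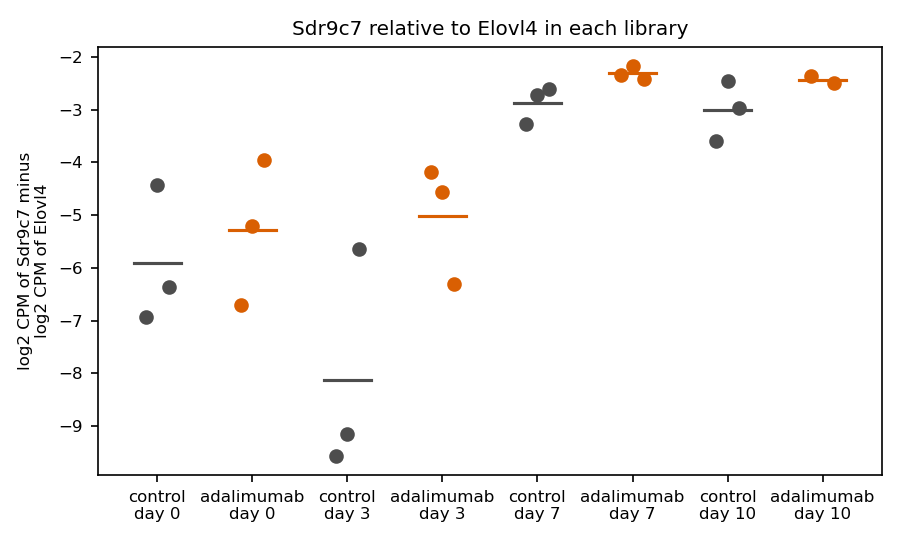
Log2 CPM of Sdr9c7 minus log2 CPM of Elovl4 (vertical axis, prior count 3) in each library of the 8 groups, with bars for group means, control in grey and adalimumab in orange. All 12 points of days 0 and 3 lie at or below -3.96 and all 11 points of days 7 and 10 at or above -3.59.

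The 2 genes also differ in the sequence before their start sites, shown here because they mark the ends of that contrast. RefSeq promoters (GRCm38.p6, another build than that of the counts) were matched for 8 of the 9 enzymes. The 250 bases before the start of Elovl4 (chr9:83806306-83806555, minus strand) hold 25 CG pairs at 69.6% GC, and 89.3% of 32851 mouse promoters hold fewer CG pairs. Those before the start of Sdr9c7 (chr10:127898285-127898534, plus strand) hold 2 CG pairs at 49.6% GC, and 18.8% of promoters hold fewer. The median promoter held 6 CG pairs at 52.4% GC. Both are printed 5′ to 3′ on the strand of the gene, with CG pairs and the TATAAA motif in capitals:
Elovl4: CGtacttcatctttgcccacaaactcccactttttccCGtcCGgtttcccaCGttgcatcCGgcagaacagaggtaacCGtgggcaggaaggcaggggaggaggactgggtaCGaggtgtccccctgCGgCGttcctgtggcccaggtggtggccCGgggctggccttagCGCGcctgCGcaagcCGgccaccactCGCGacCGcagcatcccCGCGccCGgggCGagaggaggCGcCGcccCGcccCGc
Sdr9c7: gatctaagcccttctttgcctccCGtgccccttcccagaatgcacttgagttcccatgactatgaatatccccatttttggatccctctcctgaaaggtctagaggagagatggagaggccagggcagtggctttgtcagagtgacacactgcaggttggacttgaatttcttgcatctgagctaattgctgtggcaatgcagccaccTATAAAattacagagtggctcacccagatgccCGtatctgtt
The TATAAA motif, searched on both strands, was found in Sdr9c7 alone of the 8, 42 bases before the start, and in 12.4% of all promoters. The AP-1 motif TGANTCA was in 0 of 8 and in 6.7% of all promoters, and the motif AACCNGTT of the grainyhead-like factors was in 0 of 8 and in 1.8%. These are matches of letters within this window only.

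Alox12 was followed beside platelet markers because platelets make it too. The 9 platelet markers summed to 13.1 to 34.5 CPM in control skin of day 0 and 230 to 479 CPM in control wounds of day 3, while Alox12 fell over the same days. Of the 8 tested, Pf4, Ppbp and Itgb3 rose (log2 differences 4.57, 5.09 and 3.68), Gp1ba fell (-2.10 ± 0.54) and 4 were not called. In adalimumab day 3 replicate 1, where keratins and the other 8 enzymes were near 0, Alox12 had 61 counts (1.65 CPM), level with replicates 2 and 3 (2.20 and 1.61 CPM). Of the 469 CPM of platelet markers in that library, Pf4 made up 357 CPM, Ppbp 64.6 CPM and Itgb3 39.8 CPM. Gp9, Gp1ba, Gp6 and Treml1 were each under 1 CPM and Gp1bb had 0 counts (which allows up to 0.0812 CPM). Gp9 and Gp6 were low throughout, at most 0.595 and 0.367 CPM in any library. That library held the highest Gp9 level (22 counts) and 12 counts of Gp6. From day 0 to day 3 in adalimumab Pf4, Ppbp, Itgb3, Gp6 and Treml1 rose (log2 differences 5.88, 9.43, 2.43, 6.11 and 4.45). Itga2b, Gp1ba and Gp1bb were not called there. On day 10 the platelet sums were 117 to 126 CPM in adalimumab and 114 to 205 CPM in control, overlapping, while Alox12 did not overlap. Over the 23 libraries r of Alox12 was -0.627 with the platelet score and 0.777 with the suprabasal score, and without that library -0.619 and 0.882.

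The wider pathway was followed in a list of 71 genes for fatty acid elongation, ceramide and glucosylceramide metabolism, lipoxygenases, envelope cross-linking, sterols, late lipid enzymes and their transcription factors, of which 70 were in the table and tested. In control wounds of day 3, 7 of 70 rose and 19 fell, where 17.5% and 17.1% of all genes tested did (median log2 difference -0.71). Among those that rose were Sptlc2 (1.63 ± 0.19), a subunit of the enzyme that starts sphingolipid synthesis, and the leukocyte 5-lipoxygenase Alox5 (2.77 ± 0.49). Among those that fell were the nuclear receptor Rora (-1.97 ± 0.38) and the filaggrin-processing protease Asprv1 (-4.96 ± 1.25). On day 10 in control 5 rose, where 16.2% of all genes tested did, among them Sptlc2 (1.45 ± 0.19) and the glucosylceramide synthase Ugcg (2.25 ± 0.39), and 24 fell, where 18.2% did, among them Tecr (-1.91 ± 0.31) and Hsd17b12 (-1.75 ± 0.29), which both act in each cycle of fatty acid elongation.

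In adalimumab wounds 8 of 70 rose and 3 fell by day 3, where 11.9% and 9.54% of all genes tested did, so the rises were at the background rate. Without day 3 replicate 1, 9 rose and 1 fell, where 11.4% and 6.93% did. The median log2 difference over the 70 was -0.40 with all libraries and -0.26 without the hair-rich day 0 libraries. Called with all libraries were Cers2 (1.40 ± 0.22), the ceramide synthase of very long chains, and Sptlc2 (1.13 ± 0.19) higher and Elovl5 (-0.64 ± 0.20) and Hacd3 (-0.75 ± 0.24), both of fatty acid elongation, lower. By day 10, 6 rose and 2 fell, where 9.02% and 5.41% of all genes tested did, so the rises were again near the background. Without adalimumab day 3 replicate 1, 8 rose and 5 fell, where 10.8% and 4.9% did. The median over the 70 was 0.239 with all libraries and 0.545 without the hair-rich ones. Degs2, which hydroxylates ceramide to its phyto form, rose from a mean of 0.497 to 15.5 CPM (4.95 ± 0.81, adjusted p = 0.00069), Sptlc2 rose by 1.19 ± 0.21, and Elovl5 (-1.30 ± 0.23) and Tecr (-1.40 ± 0.35) fell. From day 3 to day 7, 4 of 70 fell and 0 rose in control, where 1.28% and 1.77% of all genes tested did. In adalimumab 5 fell and 2 rose, where 3.11% and 3.37% did. Without day 3 replicate 1, 0 fell and 1 rose, where 0.595% and 1.68% did. The 2 that rose with all libraries were Degs2 (2.56 ± 0.69) and the cornification protease Casp14 (4.25 ± 1.15). Between treatments edgeR called 0 of 70 on any single day. Without adalimumab day 3 replicate 1 it called 2 on day 10, both higher, where 0.0651% of all genes tested were higher. Over the mean of days 7 and 10 the sphingomyelinase Smpd1 was the 1 of 70 called, higher in adalimumab (1.26 ± 0.23, adjusted p = 0.0489). Without adalimumab day 3 replicate 1, 12 were higher, where 1.12% of all genes tested were. The Smpd1 call was lost without the hair-rich day 0 libraries, a fit that leaves 1 library in that group.

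The genes whose pattern over the 23 libraries was most like the mean of the 9 enzymes were Epn3 (r = 0.985), Bpifc (0.983), Pla2g2f (0.981), Pglyrp4 (0.977), Fads2b (0.976), Nipal4 (0.976), Spink5 (0.975) and Krtdap (0.97), out of 12651 genes whose log2 CPM averaged 1 or more. Epn3 stood at 35.1 ± 11.9 CPM in adalimumab and 6.48 ± 2.06 CPM in control on day 10. Nipal4, Pla2g2f and Spink5 are on the pathway list and Krtdap on the suprabasal list. The single most similar gene was Sdr16c6 for Elovl4 (0.985), Serpinb5 for Cyp4f39 (0.974), Epn3 for Cers3 (0.974), Lipm for Pnpla1 (0.975), Spink5 for Abca12 (0.983), Grhl3 for Alox12b (0.941), Ccdc120 for Aloxe3 (0.977), Klk5 for Sdr9c7 (0.99) and Nlrp10 for Alox12 (0.928). With adalimumab day 3 replicate 1 left out, the first 8 were at 0.942 to 0.975 and the others at 0.909 to 0.984. These correlations describe libraries that share a tissue and its keratinocyte content, and they carry no test.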

How the data were processed

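RNA from 23 skin and wound libraries was read as 50-base single reads, per the labels' protocols, from a stranded total RNA kit. The authors deposited raw counts per gene. The submitters' processing notes name STAR and GRCm39. No source used here gives the tool, annotation or strand rule by which genes were counted, so reads shared with overlapping or antisense genes may count toward a member. The members and lists were chosen with earlier results of these data known.

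Groups came from the labels, which call the replicates biological. Counts were scaled by TMM (factors 0.861 to 1.18) and fitted with edgeR 4.0.16 in R 4.3.3, by its quasi-likelihood test with 1 mean per group over all 23 libraries, in 17 comparisons. The filter required at least 10 counts in enough libraries and 15 in total, and left 23083 of 56379 genes. P-values were Benjamini-Hochberg adjusted over these, with a threshold of 0.05. Fold changes are log2 with SE, taken as the size of the change over the square root of the F statistic. Figures, correlations and scores used log2 CPM with a prior count of 3. The biological coefficient of variation was 42.5%. DESeq2 1.42.0 and limma 3.58.1 were alternatives, and limma voom with sample weights and the fit without adalimumab day 0 replicates 2 and 3, and list counts and correlations without the libraries that stood apart, were chosen after seeing the data. Scripts were tested on simulated data.

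Genes named outside the set were, from the pathway list, those with the smallest adjusted p in each direction (at most 4 per comparison), and the 8 genes most like the members' mean with 1 for each member.

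Animal numbers in the count table's headers pair days 0 and 3. The deviations of an animal's 2 libraries from their group means correlated at -0.085, -0.041 and -0.079 in control and 0.26, -0.11 and 0.26 in adalimumab.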

Additional observations from a re-analysis of the deposited data

How the results depend on the processing

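Of the 9 enzymes, edgeR called 0 to 1 for treatment on day 10 over the fits that left out 1 library each, 0 to 4 for the mean of days 7 and 10, 1 to 7 from day 0 to day 3 and 1 to 4 from day 0 to day 10 in control, 0 to 1 from day 3 to day 7 in control and 0 to 1 from day 0 to day 3 in adalimumab. In the other 11 comparisons it called 0 in each such fit. DESeq2 called 1 for treatment on day 10, 4 for the mean of days 7 and 10, 1 from day 3 to day 7 in each arm, 2 from day 0 to day 10 in control and 1 for the difference between treatments in that change. Limma voom with sample weights called 7, 6, 0 and 1, 2 and 1 in the same order, with 2 from day 0 to day 3, 1 from day 7 to day 10 and 5 from day 0 to day 10 in adalimumab. A fit of the compared groups alone called 8 for treatment on day 10, and from day 0 to day 10 it called 5 in control and 2 in adalimumab. RLE size factors, no filter on low counts and a stricter filter each called 1 (Alox12) for the mean of days 7 and 10. The cause of these changes was not tested.

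With the animal as a replicate block, on days 0 and 3 alone, 2 enzymes passed from day 0 to day 3 in control in place of 5. With the replicate number as a block over all libraries the count was 5, and no other count of enzymes changed under either block. The Sdr9c7 difference from day 0 to day 10 in control (-0.40) was 0.00707 with the replicate block, -0.81 to 1.32 over the fits that left out 1 library (the last without control day 0 replicate 2) and 0.94 by limma voom. The Elovl4 difference from day 0 to day 3 in control was -1.63 to 0.13 over the fits that left out 1 library, the last without control day 3 replicate 3. Without adalimumab day 0 replicates 2 and 3, 0 enzymes passed from day 0 to day 3 in adalimumab in place of 1.

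Counts over all genes moved more. On day 0 62 genes differed between treatments by edgeR, 702 by DESeq2 and 0 with RLE size factors. For the mean of days 7 and 10 the counts were 21 by edgeR, 571 by DESeq2 and 2836 by limma voom. On day 10 they were 0, 413 and 5020, on day 3 0, 846 and 0, and on day 7 0, 6 and 2. In control 703, 1978 and 3366 genes changed from day 3 to day 7, and 1495, 3135 and 1734 in adalimumab. From day 0 to day 3 in adalimumab 4956 were called by edgeR and 1518 with the animal as a block, and in control 7986 and 5148. Group sizes of 2 to 3 libraries and low counts of Alox12b, Sdr9c7 and Alox12 on day 3 limit the precision.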
